A study of Arabidopsis thaliana with 24 samples.

Results

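Class III secretory peroxidases are a large family of plant enzymes, and 45 of their loci in Arabidopsis thaliana are described here. The rule behind the list is family membership, as enzymes that salicylhydroxamic acid (SHAM) can inhibit, and it uses no measured value. The list was nonetheless drawn up with earlier results of these data known, and it leaves out 28 further loci of the family, whose values are given last. The deposited count table held 40 of the 45, among 16183 genes in all. The other 5 (AT3G49110, AT2G22420, AT5G06720, AT5G06730 and AT3G50990) are not analysed here. At least 1 count was found for 39 loci in shoots and for 40 in roots, and 20 and 37 of them had enough counts to be tested in shoots and in roots. Seedlings were wild type, of the Columbia-0 accession, 7 days old and grown on sucrose medium, with pools of 30 to 50 seedlings per biological replicate. They were placed in 1 mM SHAM for 1, 2 or 3 h, or in water for 1 h, after which shoots and roots were taken apart, giving 8 groups of 3 libraries. The treatment labels name SHAM alone at 1 mM, whereas the protocol text gives SHAM at 0.1 mM in one place and, in another, 1 mM SHAM together with 30% polyethylene glycol, an osmoticum. The solutions are called SHAM here, as in the labels; if the glycol was in them, its effect and that of SHAM cannot be told apart. Water was sampled at 1 h only, so that exposure and time in solution cannot be told apart at 2 h and 3 h. The comparisons address how transcripts of these enzymes stood in each organ after each exposure.

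Class III peroxidases are haem enzymes that pass through the secretory pathway into the cell wall and the vacuole. With hydrogen peroxide they oxidise phenolic compounds, which links lignin units to each other and extensins, the rod-like glycoproteins of the wall, into a network. They can also produce reactive oxygen species, and so both stiffen and loosen walls. In roots they are known for their part in root hair growth and in the lignin of the Casparian strip and of xylem. SHAM is best known as an inhibitor of the mitochondrial alternative oxidase, and it also acts on peroxidases. The measurements here are of transcripts and say nothing of enzyme activity.

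Transcripts were counted at their 3′ ends, and library totals lay between 862731 and 3622300 counts. Values in single libraries are CPM, a gene's counts scaled to the same total in every library, listed as replicates 1, 2 and 3 of a group. Differences are log2 fold changes of SHAM over water with their standard error, tested with edgeR across all genes and called at an adjusted p under 0.05. They use TMM scaling, which differs from the library total: with library size alone the median tested gene stood at -0.21, -0.41 and -0.43 in roots at 1, 2 and 3 h, against 0.04, -0.08 and -0.07 with TMM. Marker genes followed the organ labels: 12 of 12 photosynthesis markers were higher, and 6 of 6 root hair and 4 of 4 measured endodermis markers lower, in shoots than in roots in water. Some libraries stood apart. The photosynthesis markers summed to 17451 CPM in root SHAM 1 h replicate 1, the highest value of that group, against 440 to 715 CPM in root water libraries. In roots 5 libraries correlated more closely with another exposure than with their own group (mean Pearson r across 9540 genes). The gap was widest for root SHAM 2 h replicate 3, at 0.957 with the SHAM 3 h libraries and 0.932 with its own group, and for root SHAM 3 h replicate 1, at 0.938 with the 2 h libraries and 0.906 with its own. Root SHAM 3 h replicates 2 (0.944 and 0.939) and 3 (0.938 and 0.935) were also nearer to the 2 h libraries, as was root SHAM 1 h replicate 3 (0.923 and 0.917), by at most 0.0056. Results at 2 h and 3 h in roots are also given without the first 2 of these. In shoots 1 library did so, by the widest gap of all: shoot SHAM 1 h replicate 3 had 0.936 with the 2 h libraries and 0.88 with its own group, across 7399 genes. Counts of calls in shoots at 1 h are also given without it.

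Roots in water gave a much larger share of their counts to these peroxidases than shoots did. The 40 measured loci took between 0.247% and 0.358% of counts in the shoot water libraries and between 1.61% and 1.96% in the root water libraries. Of 37 loci tested between the organs, 31 were lower and 2 higher in shoots, where edgeR called 50.2% of all genes tested. Of the 37, 17 had too few counts to be tested within shoots and entered through the root libraries, where they are high, so that a lower value in shoots was largely set by the filter. Among the 20 that passed in both organs, a split made after the values were seen, 15 were lower and 2 higher, with a median of -2.74 (log2, shoot over root). The 7606 genes that passed in both organs had a median of 0.18, and 45.7% of them were called, 17.6% lower and 28.1% higher. Scaling by library size alone gave 31 lower and 1 higher of the 37 members, moved the median of all genes tested to -1.19, and gave 1686 higher and 6402 lower genes in all against 2942 and 2935 with TMM. Leaving out single libraries gave between 30 and 32 called members.

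**Figure D1:**
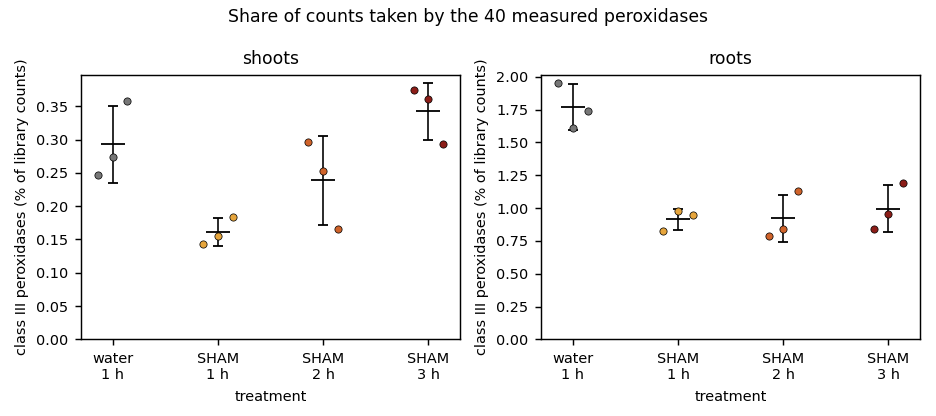
Share of each library's counts taken by the 40 measured peroxidases (percent, vertical axis) in shoots and in roots, after water for 1 h and after SHAM for 1, 2 and 3 h. Points are libraries, and bars are the mean and SD of 3. The 3 root libraries at 1 h of SHAM lie between 0.824% and 0.977%, and those in water between 1.61% and 1.96%.

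AT3G49960, a gene that RefSeq describes as enriched in root hair cells, had 0 counts in all 3 shoot water libraries and 47.1, 81.1 and 48.8 CPM in root water. At a floor of 3 counts over the group it was at least 117.7-fold lower in shoots. RHS19 (AT5G67400), named as a root hair specific gene, had 1.48, 0 and 0 CPM in shoots, against 80.9, 85.8 and 53.1 CPM in roots. Only 2 counts were found in shoots, and the roots-over-shoots ratio was 229.9 (95% interval 63.1 to 1907). Prx37 (AT4G08770), a peroxidase of vascular bundles, likewise had 0, 0.645 and 0.276 CPM in shoots and 51.3, 102 and 57.3 CPM in roots, a ratio of 206 (56.5 to 1709). AT5G19890 had 1 count in shoots and 9.52, 31.3 and 14.3 CPM in roots, a ratio of 101.2 (17.6 to 4054). These ratios and the floor pool counts over library totals without TMM scaling, and the intervals cover counting error only. With TMM the edgeR differences were smaller, at -6.56 for RHS19, -6.55 for Prx37 and -5.46 for AT5G19890 (log2, shoot over root). With more counts behind them, AT4G26010 stood at 0, 2.58 and 1.10 CPM in shoots and 449, 275 and 361 CPM in roots (-7.08 ± 0.60, edgeR adjusted p = 1.02e-09; -7.74 without shoot water replicate 2). AT1G30870 stood at 1.48, 3.22 and 1.38 CPM in shoots and 381, 233 and 328 CPM in roots (-6.27 ± 0.50, edgeR adjusted p = 1.06e-09). AT3G01190 had 5.93, 12.3 and 6.07 CPM in shoots, against 759, 653 and 747 CPM in roots (-5.42 ± 0.41, edgeR adjusted p = 1.81e-10). AT5G17820 had 40.8, 44.5 and 32.6 CPM in shoots, against 2603, 2195 and 2369 CPM in roots (-4.86 ± 0.26, edgeR adjusted p = 6.05e-12). Shoot and root libraries did not overlap for any of these 8 loci, which were picked for their large differences. The share of all genes without overlap was not computed.

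The shoot was the higher organ for AT1G71695, with 343, 342 and 360.0 CPM in shoot water and 96.7, 48.7 and 51.0 CPM in root water (3.47 ± 0.39, edgeR adjusted p = 7.17e-08), and all shoot libraries lay above all root libraries. AT4G37520 was called higher in shoots with TMM (0.89 ± 0.31, edgeR adjusted p = 0.0194), while its CPM overlapped (54.9, 47.1 and 55.8 in shoots and 66.6, 54.5 and 57.3 in roots) and its direction reversed with library size alone (-0.19). The call was lost without any one of root water replicates 2 or 3 or shoot water replicate 3 (edgeR adjusted p = 0.0552 to 0.087), or with library-size scaling or DESeq2 (adjusted p = 0.0578 to 0.597). The 2 other loci whose calls between organs were lost without 1 library were AT4G36430 (-1.86) and PRX52 (-2.67). AT4G36430 lost it without any one of root water replicate 3 or shoot water replicates 1, 2 or 3 (edgeR adjusted p = 0.0511 to 0.132). PRX52 stood at -1.98 without root water replicate 1 and at -3.33 without shoot water replicate 3. It lost its call without any one of root water replicate 1 or shoot water replicates 1, 2 or 3 (edgeR adjusted p = 0.0784 to 0.18), or with DESeq2 (adjusted p = 0.0574). The 4 tested loci that were not called were AT1G14550 (-2.22), PRX71 (0.54), PRXR1 (0.48) and AT3G28200 (0.28). PRXR1 (AT4G21960) and PRX71 (AT5G64120), a wall-bound enzyme of lignification, took the most counts among these loci in shoot water. PRXR1 had 759, 1069 and 1809.9 CPM in shoots, against 2061, 1519.6 and 1874 CPM in roots (edgeR adjusted p = 0.249). PRX71 had 596, 616 and 695 CPM in shoots, against 1159.9, 749 and 853 CPM in roots (edgeR adjusted p = 0.106).

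After 1 h of SHAM the share of root counts in these peroxidases was 0.824% to 0.977%, against 1.61% to 1.96% in water, with no overlap between the groups. Of 37 loci tested in roots, 17 fell and 1 rose, in a comparison where 12.2% of all genes were called, 5.22% lower and 7.01% higher. The median over the 37 was -1.17, beside 0.04 over all genes, and 25 of the 37 had an unadjusted p under 0.05. Of the 37, AT3G49960, PRX52, AT5G19890 and AT5G15180 met the minimum count in fewer than 3 of the root SHAM libraries, and so passed the filter only with the water libraries. Among the other 33, 14 were lower and 1 higher, with a median of -0.90. The 9528 genes that likewise passed in SHAM libraries alone had a median of 0.13, and 4.1% were called lower and 7.83% higher. Scaling by library size alone gave 18 lower and 1 higher member, and 446 higher and 974 lower genes in all against 746 and 556. Of the 18 calls, 13 held in every fit that left out 1 library. For comparisons within an organ, calls lost with the replicate number as a block in the fit are listed at the end only. The photosynthesis markers that marked root SHAM 1 h replicate 1 moved with this comparison (4 of 12 called higher). Without that library 16 members were called, and the range over all genes in such fits is given at the end. The authors' deposited table, whose log2 values run as control over SHAM, had 20 of the 40 loci with an adjusted p under 0.05. Of these 19 were lower and 1 higher after SHAM. The share of all genes called there was not computed.

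**Figure D2:**
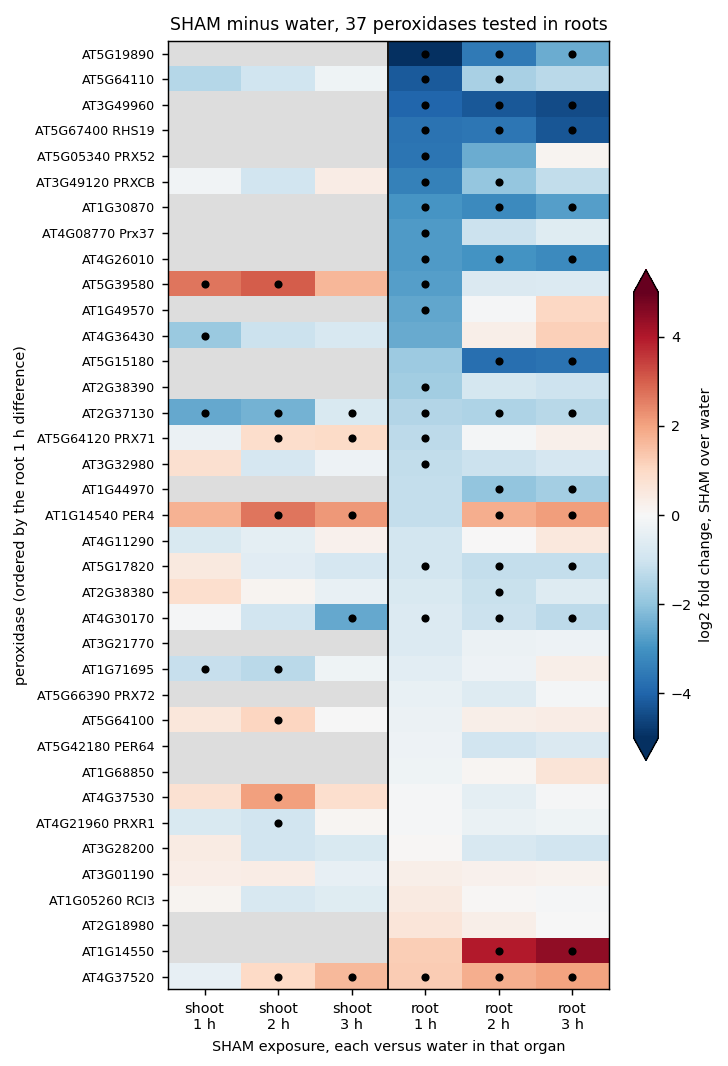
Log2 fold change of SHAM over water (colour) for the 37 peroxidases tested in roots (rows, ordered by the root value at 1 h), in shoots and roots at 1, 2 and 3 h (columns). Black dots are calls at an adjusted p under 0.05, grey cells were not tested, and colours end at -5 and 5. At 1 h roots have 17 dots on blue cells and 1 on a red cell.

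Genes of root hairs were among those that fell furthest. RHS19 had 5.94, 1.54 and 7.27 CPM after 1 h of SHAM, against 80.9, 85.8 and 53.1 CPM in water, a log2 fold change of -3.70 ± 0.51, edgeR adjusted p = 0.00041. AT3G49960 had 5.09, 1.54 and 2.91 CPM after SHAM, against 47.1, 81.1 and 48.8 CPM in water (-3.98 ± 0.56, edgeR adjusted p = 0.000429). In both, the highest SHAM library lay far below the lowest water library. RHS18 (AT5G22410), another root hair specific gene, had too few counts to test, with 2 after SHAM and 24 in water, a water-over-SHAM ratio of 19.8 (4.92 to 173.1). The root hair markers fell beside them: 5 of the 5 tested were called lower at 1 h, and their summed level was 77.3 to 82.9 CPM after SHAM, against 487 to 709 CPM in water. The part of root hair cells in these results was not tested, and in bulk tissue fewer cells of a type and less RNA per cell cannot be told apart. The 4 measured endodermis markers had no call at 1 h (summed level 895 to 1167 CPM after SHAM, against 1307 to 1643 CPM in water).

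Several wall and lignin peroxidases fell in the same hour. PRXCB (AT3G49120), a wall peroxidase of cell elongation that can generate hydrogen peroxide in defence, had 30.6, 12.9 and 27.6 CPM after SHAM, against 273, 413 and 175 CPM in water (-3.38 ± 0.49, edgeR adjusted p = 0.000553). Prx37 had 11.0, 5.24 and 8.73 CPM after SHAM, against 51.3, 102 and 57.3 CPM in water (-2.84 ± 0.45, edgeR adjusted p = 0.00128). PRX71 had 318, 324 and 309 CPM after SHAM, against 1159.9, 749 and 853 CPM in water (-1.29 ± 0.24, edgeR adjusted p = 0.00361). For these 3 genes the SHAM and water libraries were fully apart, and the calls held when any 1 library was left out. PRX52 (AT5G05340), a lignin peroxidase, had 0, 1.23 and 0 CPM after SHAM, against 14.8, 2.32 and 6.37 CPM in water (-3.64 ± 1.08, edgeR adjusted p = 0.0418). Its call rested on few counts, and its fold change was -2.82 without root water replicate 1 and -6.74 without root SHAM 1 h replicate 2. The call was lost without any one of root water replicates 1, 2 or 3 or root SHAM 1 h replicates 1 or 3 (edgeR adjusted p = 0.0569 to 0.154). PRX2 (AT1G05250), a cationic wall-bound peroxidase, and AT1G05240 stayed below the filter, with 2 and 3 counts after SHAM and 11 and 21 in water. PRX72 (AT5G66390), a lignin peroxidase, had 109, 99.8 and 112 CPM after SHAM, against 171, 134 and 190.1 CPM in water, and was not called (-0.39 ± 0.42, edgeR adjusted p = 0.53). PER64 (AT5G42180), which lignifies the Casparian strip, was not called either (122, 156 and 136 CPM after SHAM, against 217, 132 and 231 CPM in water; -0.24 ± 0.33, edgeR adjusted p = 0.618). The cold-inducible RCI3 (AT1G05260) was not called (0.47 ± 0.21, edgeR adjusted p = 0.147).

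The locus furthest down was AT5G19890, with 1 count in the SHAM libraries and 72 in water (0, 0 and 0.485 CPM after SHAM, against 9.52, 31.3 and 14.3 CPM in water). The water-over-SHAM ratio was 119 (20.7 to 4764), and edgeR's value with TMM was -6.27 (edgeR adjusted p = 0.000291). AT5G64110 had 6.79, 2.77 and 9.70 CPM after SHAM, against 184, 122 and 106 CPM in water (-4.21 ± 0.52, edgeR adjusted p = 0.000155). AT1G30870 had 35.7, 31.4 and 36.8 CPM after SHAM, against 381, 233 and 328 CPM in water (-2.94 ± 0.39, edgeR adjusted p = 0.00029). All 3 loci were lower in each SHAM library than in each water library. AT4G26010 (-2.81), AT5G39580 (-2.74, and -3.57 without root SHAM 1 h replicate 1) and AT1G49570 (-2.61) also fell. AT1G30880, which overlaps AT1G30870 on the other strand, averaged 48.4 CPM after SHAM and 176.6 CPM in water. The strand used in counting is not given in the sources used here, so reads of overlapping pairs cannot be told apart; RHS19, AT4G26010 and PER64 have such a partner too.

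Of the 5 loci with the most counts in root water, 3 fell at 1 h. AT2G37130 had 1121, 1164 and 1231 CPM after SHAM, against 4174, 3634 and 3688 CPM in water (-1.47 ± 0.22, edgeR adjusted p = 0.000734). AT5G17820 had 1145, 985 and 1122 CPM after SHAM, against 2603, 2195 and 2369 CPM in water (-0.90 ± 0.17, edgeR adjusted p = 0.00425). AT4G30170 had 743, 1174 and 949 CPM after SHAM, against 2018, 1722 and 1779 CPM in water (-0.70 ± 0.20, edgeR adjusted p = 0.0373). Its call was lost without any one of root water replicates 1, 2 or 3 or root SHAM 1 h replicates 1 or 3 (edgeR adjusted p = 0.112 to 0.147), or with no low-count filter, DESeq2 or only the libraries compared in the fit (adjusted p = 0.0661 to 0.113). AT5G64100 overlapped between the groups (1263, 1577 and 1861 CPM after SHAM, against 2729, 1814 and 2199.8 CPM in water; -0.28 ± 0.21, edgeR adjusted p = 0.358). PRXR1 overlapped too (1126, 2125 and 1147 CPM after SHAM, against 2061, 1519.6 and 1874 CPM in water; -0.06 ± 0.28, edgeR adjusted p = 0.904). Of the other called loci, AT2G38390 (-1.74) lost its call without any one of root water replicates 2 or 3 or root SHAM 1 h replicate 2 (edgeR adjusted p = 0.061 to 0.103), or with only the libraries compared in the fit (adjusted p = 0.063). AT3G32980 (-1.25) lost it without any one of root water replicates 2 or 3 or root SHAM 1 h replicates 2 or 3 (edgeR adjusted p = 0.0513 to 0.165), or with only the libraries compared in the fit (adjusted p = 0.0637).

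AT4G37520 was the 1 peroxidase that rose at 1 h. It had 87.0, 162 and 114 CPM after SHAM, against 66.6, 54.5 and 57.3 CPM in water (1.27 ± 0.30, edgeR adjusted p = 0.0143), with no overlap between the libraries. The call was lost without any one of root water replicates 2 or 3 (edgeR adjusted p = 0.0513 to 0.0621). Its neighbour AT4G37530 on the same chromosome had 22.5, 19.4 and 32.0 CPM after SHAM, against 33.8, 24.3 and 32.4 CPM in water, and was not called (-0.07 ± 0.31, edgeR adjusted p = 0.888). The 2 genes share 8.39% and 5.88% of the 50-base windows at the 3′ ends of their RefSeq transcripts, so that a part of their reads could be assigned to either.

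At 2 h in roots, 13 of 37 loci were lower and 3 higher (14% of all genes called, 5.4% lower and 8.6% higher), with a median of -0.78 over the members and -0.08 over all genes. At 3 h, 10 were lower and 3 higher (16.4% of all genes called, 6.4% lower and 9.99% higher), with medians of -0.61 and -0.07. Their share of root counts lay between 0.791% and 1.13% at 2 h and between 0.837% and 1.19% at 3 h. Among the 33 loci that passed the filter in SHAM libraries alone, 10 were lower and 3 higher at 2 h (median -0.64) and 7 lower and 3 higher at 3 h (median -0.27). Of the 9528 genes that likewise passed, 4.55% were lower and 9.6% higher at 2 h (median 0.01). At 3 h these shares were 5.29% lower and 11.2% higher (median 0.02). Without the 2 libraries named above, 17 members were lower and 2 higher at 2 h, where 12.7% of all genes were called, 4.35% lower and 8.36% higher. At 3 h 10 were then lower and 6 higher, where 16.6% of all genes were called, 5.95% lower and 10.7% higher. Library size alone gave 16 lower and 2 higher at 2 h and 17 lower and 3 higher at 3 h, and over all genes 575 higher and 1301 lower at 2 h and 653 and 1563 at 3 h. An adjusted p under 0.05 stood beside 16 of the 40 loci at 2 h and 14 at 3 h in the authors' deposited table, whose share over all genes was not computed. Both exposures are set against the same 3 water libraries, as the 1 h group is, so their differences from water are not independent of each other.

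The root hair genes were low at both later times. RHS19 had 6.32, 2.83 and 5.04 CPM at 2 h (-3.60 ± 0.53, edgeR adjusted p = 0.000438) and 0.733, 4.83 and 2.87 CPM at 3 h (-4.28 ± 0.55, edgeR adjusted p = 0.000122). AT3G49960 had 2.81, 3.54 and 1.37 CPM at 2 h (-4.22 ± 0.60, edgeR adjusted p = 0.000324) and 5.13, 0.604 and 1.15 CPM at 3 h (-4.49 ± 0.61, edgeR adjusted p = 0.00019; -5.49 without root SHAM 3 h replicate 1). Each of these libraries lay below every water library. Root hair markers were called lower in 5 of 5 at 2 h and 4 of 5 at 3 h, with summed levels of 44.3 to 70.5 CPM and 61.5 to 80.9 CPM. Of the endodermis markers 1 of 4 was lower at 2 h and 0 at 3 h, with sums of 625 to 1147 CPM and 622 to 1022 CPM. RHS18 had 3 counts at 2 h and 3 at 3 h, against 24 in water, and the water-over-SHAM ratios were 8.66 (2.63 to 44.9) and 11.2 (3.41 to 58.2). AT1G30870 had 19.0, 19.8 and 41.7 CPM at 2 h (-3.19 ± 0.40, edgeR adjusted p = 0.000103) and 17.6, 35.6 and 53.6 CPM at 3 h (-2.77 ± 0.39, edgeR adjusted p = 0.000259). AT4G26010 had 22.5, 27.6 and 58.6 CPM at 2 h (-2.97 ± 0.39, edgeR adjusted p = 0.000149) and 17.6, 35.6 and 39.6 CPM at 3 h (-3.17 ± 0.39, edgeR adjusted p = 7.92e-05). These 4 loci kept their calls at 2 h and at 3 h in each fit that left out 1 library.

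**Figure D3:**
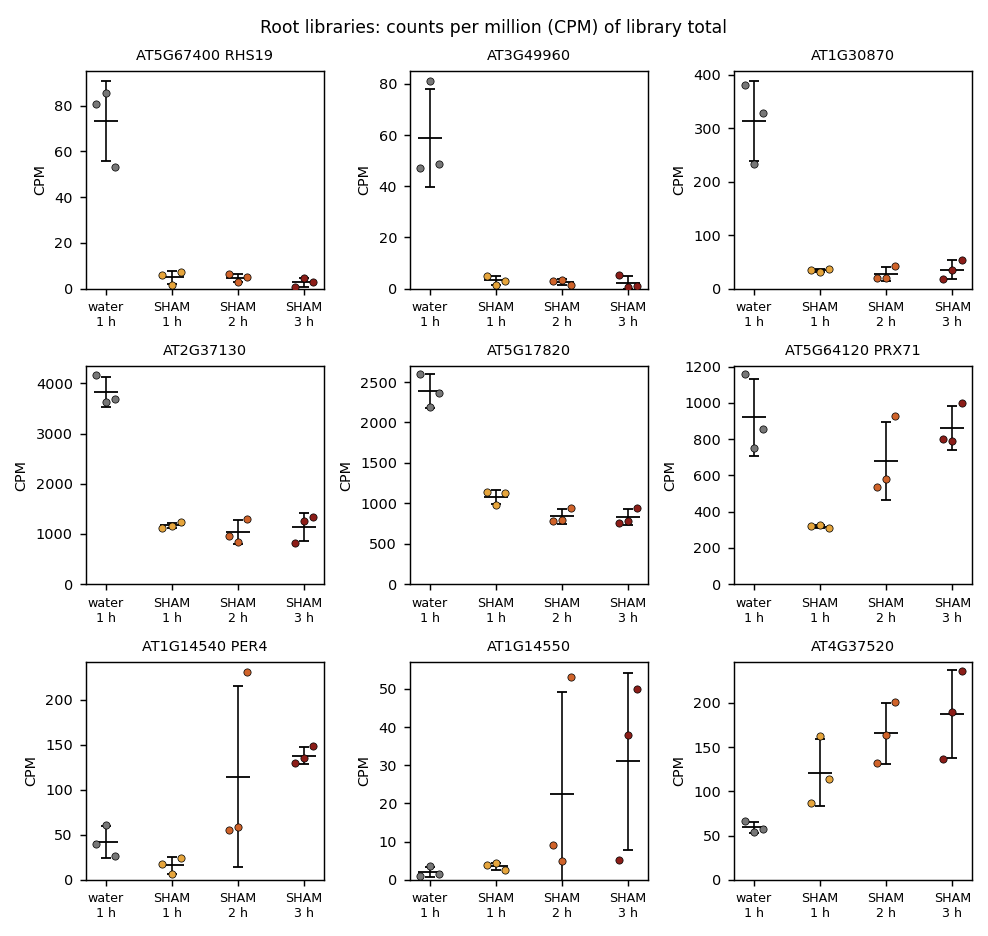
Levels in CPM of 9 peroxidases in the 12 root libraries, after water for 1 h and after SHAM for 1, 2 and 3 h (horizontal axis), on linear axes from 0. Points are libraries, and bars are the mean and SD of 3, with lower ends under 0 not drawn. RHS19, AT3G49960 and AT1G30870 stay below all water libraries at each exposure, and AT4G37520 above them.

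AT2G37130, AT5G17820 and AT4G30170 were also lower at both times. AT2G37130 had 968, 836 and 1308 CPM at 2 h (-1.56 ± 0.22, edgeR adjusted p = 0.000324) and 826, 1258 and 1332 CPM at 3 h (-1.40 ± 0.22, edgeR adjusted p = 0.000627). AT5G17820 had 775, 798 and 938 CPM at 2 h (-1.19 ± 0.17, edgeR adjusted p = 0.000433) and 762, 783 and 940.1 CPM at 3 h (-1.17 ± 0.17, edgeR adjusted p = 0.000421). AT4G30170 had 687, 706 and 708 CPM at 2 h (-1.07 ± 0.20, edgeR adjusted p = 0.00305) and 623, 532 and 583 CPM at 3 h (-1.31 ± 0.20, edgeR adjusted p = 0.000605). For each of the 3 loci, every SHAM library at 2 h and 3 h lay below every water library. AT5G19890 had 0.703, 0.708 and 1.83 CPM at 2 h (-3.54 ± 0.67, edgeR adjusted p = 0.00303) and 2.93, 1.81 and 2.58 CPM at 3 h (-2.49 ± 0.59, edgeR adjusted p = 0.0106). At 2 h it stood at -2.91 without root water replicate 2 and -4.20 without root SHAM 2 h replicate 3, and at 3 h at -1.86 without root water replicate 2. The 3 h call was lost without any one of root water replicate 2 or root SHAM 3 h replicate 2 (edgeR adjusted p = 0.0507 to 0.0604). AT5G15180 had 3 counts at 2 h and 4 at 3 h, against 47 in water, that is 0.703, 0.708 and 0.458 CPM at 2 h and 1.47, 0 and 0.574 CPM at 3 h, against 10.04, 18.5 and 6.37 CPM in water. The water-over-SHAM ratio at 2 h was 17 (5.46 to 85.2). EdgeR's adjusted p was 0.0108 at 2 h and 0.00818 at 3 h. The calls were lost without root SHAM 2 h replicate 3 (edgeR adjusted p = 0.0506) and without root SHAM 3 h replicate 3 (edgeR adjusted p = 0.051). AT1G44970 had 7.73, 2.12 and 13.3 CPM at 2 h (-1.96 ± 0.49, edgeR adjusted p = 0.015) and 4.40, 12.7 and 10.9 CPM at 3 h (-1.69 ± 0.47, edgeR adjusted p = 0.0244), against 51.3, 29.0 and 37.7 CPM in water. Its 2 h call was lost without any one of root water replicate 1 or root SHAM 2 h replicates 1 or 2 (edgeR adjusted p = 0.052 to 0.077), and its 2 h value was -2.64 without root SHAM 2 h replicate 3. Its 3 h call was lost without any one of root water replicates 1 or 3 or root SHAM 3 h replicates 1 or 3 (edgeR adjusted p = 0.0656 to 0.11).

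Other loci were called against water at only some of the exposures. AT5G64110 had 16.2, 29.7 and 59.5 CPM at 2 h (-1.61 ± 0.46, edgeR adjusted p = 0.0298) and 26.4, 53.1 and 45.0 CPM at 3 h (-1.36 ± 0.45, edgeR adjusted p = 0.0534), against 184, 122 and 106 CPM in water. The 2 h call was lost without any one of root water replicates 1, 2 or 3 or root SHAM 2 h replicates 1 or 2 (edgeR adjusted p = 0.0515 to 0.131). PRXCB had 29.5, 47.4 and 101 CPM at 2 h (-1.93 ± 0.46, edgeR adjusted p = 0.0116) and 65.9, 118 and 101 CPM at 3 h (-1.24 ± 0.45, edgeR adjusted p = 0.0747), all below the water libraries. Its 2 h call was lost without any one of root water replicate 2 or root SHAM 2 h replicates 1 or 2 (edgeR adjusted p = 0.0551 to 0.0589). Without root SHAM 2 h replicate 3 the 2 h values were -2.24 for AT5G64110 and -2.56 for PRXCB. PRX71 had 538, 577 and 925 CPM at 2 h and 799, 788 and 1002 CPM at 3 h, which overlapped the water libraries and gave no call (-0.10 and 0.26). Prx37 gave none either (-1.08 and -0.61). AT2G38380 was called at 2 h (-1.12 ± 0.30, edgeR adjusted p = 0.0221), with 132, 211 and 325 CPM after SHAM, against 608, 548 and 665 CPM in water. That call was lost without any one of root water replicates 1, 2 or 3 or root SHAM 2 h replicates 1 or 2 (edgeR adjusted p = 0.0515 to 0.105).

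The step between exposures, which uses no water library, showed 5 peroxidases higher and 0 lower in roots at 2 h than at 1 h, with 4.1% of all genes called (2.28% higher and 1.81% lower). PER4 (AT1G14540) had 54.8, 58.0 and 231 CPM at 2 h, against 17.4, 5.85 and 24.2 CPM at 1 h (2.99 ± 0.59, edgeR adjusted p = 0.0158). AT5G64110 (2.60 ± 0.51, edgeR adjusted p = 0.0158), AT1G49570 (2.56 ± 0.61, edgeR adjusted p = 0.0335), Prx37 (1.76 ± 0.45, edgeR adjusted p = 0.0425) and PRX71 (1.19 ± 0.24, edgeR adjusted p = 0.0175) were higher too. For each of the 5, all libraries at 2 h lay above all at 1 h, which was not counted over all genes. AT1G49570 had 26.7, 38.9 and 85.2 CPM at 2 h, against 3.40, 10.8 and 13.1 CPM at 1 h, and replicate 3 at 2 h was the highest library for all 5. Without root SHAM 2 h replicate 3 none of the 5 was called (edgeR adjusted p = 0.0789 for PER4, 0.0887 for AT5G64110, 0.0923 for PRX71, 0.195 for Prx37 and 0.164 for AT1G49570). The values were then 1.94 for PER4, 1.95 for AT5G64110 and 1.90 for AT1G49570. With only the libraries compared in the fit 0 members and 0 genes in all were called. DESeq2 called 8 members, and its share over all genes is not given here. Without root SHAM 2 h replicate 3 and root SHAM 3 h replicate 1, PER4 (1.99), AT5G64110 (2.00) and PRX71 were called, beside 1.92% of all genes. Leaving out root SHAM 1 h replicate 1 or root SHAM 2 h replicate 2 gave 3 calls, and the Prx37 call was lost without any one of the 6 libraries (edgeR adjusted p = 0.0543 to 0.195). It was lost too with no low-count filter or only the libraries compared in the fit (adjusted p = 0.0525 to 0.0994). Between 3 h and 2 h edgeR called 0 members and 0% of all genes, and DESeq2 also called 0 members. Without the same 2 libraries 2.04% of all genes were called, 1.2% higher, and 5 members were higher at 3 h: AT4G36430 (3.25), AT1G14550 (2.66), AT1G49570 (2.17), PRX72 (1.65) and AT4G11290 (1.46). These libraries were picked for their nearness to the other exposure, so a wider step without them was largely set in advance.

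Higher at the later times in roots were PER4, its neighbour AT1G14550 and AT4G37520. AT1G14550 had 9.13, 4.95 and 53.1 CPM at 2 h (3.98 ± 1.00, edgeR adjusted p = 0.0167) and 5.13, 38.0 and 49.9 CPM at 3 h (4.44 ± 1.00, edgeR adjusted p = 0.00749), against 1.06, 3.48 and 1.59 CPM in water. Its level was uneven within both groups, and the low library at 3 h was replicate 1. PER4 had 54.8, 58.0 and 231 CPM at 2 h (1.81 ± 0.56, edgeR adjusted p = 0.0438) and 129.7, 135 and 149 CPM at 3 h (2.10 ± 0.56, edgeR adjusted p = 0.0203), against 39.1, 60.3 and 26.0 CPM in water. At 2 h it overlapped water, and at 3 h it did not. The 2 h call of AT1G14550 was lost without any one of root water replicates 1 or 3 or root SHAM 2 h replicate 3 (edgeR adjusted p = 0.0653 to 0.133), and without the last of these its value was 2.28. Without root SHAM 2 h replicate 3 and root SHAM 3 h replicate 1 together it was 2.32 and called (edgeR adjusted p = 0.0191). AT1G14550 met the minimum count in 0 of the root water libraries and passed the filter through SHAM libraries, where it was high. That of PER4 was lost without any one of root water replicates 1 or 3 or root SHAM 2 h replicate 3 (edgeR adjusted p = 0.122 to 0.3), or with library-size scaling or with root SHAM 2 h replicate 3 and root SHAM 3 h replicate 1 left out (adjusted p = 0.0795 to 0.264). Its fold change was 0.80 without root SHAM 2 h replicate 3 and 0.84 without both libraries. The 3 h call of PER4 was lost without any one of root water replicates 1 or 3 (edgeR adjusted p = 0.0701 to 0.0774), and that of AT1G14550 held without any 1 library. AT4G37520 had 132, 163 and 202 CPM at 2 h (1.80 ± 0.30, edgeR adjusted p = 0.00118) and 136, 190.1 and 236 CPM at 3 h (2.01 ± 0.30, edgeR adjusted p = 0.000473), against 66.6, 54.5 and 57.3 CPM in water, with every SHAM library above every water library. AT4G37530 was not called at either time (-0.47 and -0.07).

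The listed loci include neighbours in the genome, and these did not all move together in roots. Of the run AT5G64100, AT5G64110 and PRX71 on chromosome 5, AT5G64110 was furthest down at 1 h (-4.21), PRX71 less (-1.29), and AT5G64100 was not called at any exposure (-0.28, 0.31 and 0.39). The pair PER4 and AT1G14550 on chromosome 1 was uncalled at 1 h (-1.17 and 1.22). AT2G38380 and AT2G38390 on chromosome 2 had -0.77 and -1.74 at 1 h, the second of them called. On chromosome 1, every 50-base window at the 3′ end of PRX2 also occurs in AT1G05240, and 43.9% of those of AT1G05240 occur in PRX2. Both genes had few counts, and reads from the shared windows cannot be told apart. RCI3 beside them shares none and was not called at any exposure. Of Prx37, 11.5% of windows also occur in AT4G08780. These neighbour relations come from the RefSeq annotation of TAIR10.1. The differences between neighbours were not tested.

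In shoots 20 of the loci were tested, and no single direction prevailed. PER4, AT5G39580 and AT4G37530 met the minimum count in at most 1 shoot water library and passed the filter through SHAM libraries, where they were high. At 1 h 3 were lower and 1 higher (16.8% of all genes called, 7.49% lower and 9.36% higher). At 2 h 3 were lower and 6 higher (15.8% of all genes, 7.44% lower and 8.38% higher). At 3 h 2 were lower and 3 higher (9% of all genes, 2.68% lower and 6.31% higher). The members' median was 0.05, -0.68 and -0.20 at 1, 2 and 3 h, beside 0.05, -0.0027 and 0.0032 over all genes. Their share of counts lay between 0.143% and 0.184% at 1 h, between 0.166% and 0.296% at 2 h and between 0.294% and 0.374% at 3 h, against 0.247% to 0.358% in water. With library size alone the members gave 5 lower and 1 higher at 1 h and 4 lower and 5 higher at 2 h. All genes gave 542 higher and 988 lower against 802 and 642 at 1 h, and 604 and 703 against 718 and 638 at 2 h. Without shoot SHAM 1 h replicate 3, the library nearer to the 2 h group, 3 members were lower and 2 higher at 1 h, where 16.3% of all genes were called, 7.22% lower and 9.07% higher. PER4 (2.24, edgeR adjusted p = 0.0308) and AT4G37520 (-0.92, edgeR adjusted p = 0.023) were then called as well. Leaving out single libraries gave 2 to 5, 4 to 8 and 2 to 5 called members. The fewest came without shoot water replicate 3 or shoot SHAM 1 h replicate 2 at 1 h, without shoot water replicate 3 at 2 h, and without shoot water replicate 2 or shoot SHAM 3 h replicate 3 at 3 h. Beside 3, 12 and 5 of the 40 loci an adjusted p under 0.05 stood in the authors' deposited table, whose share over all genes was not computed. Of the 12 photosynthesis markers, 7 were higher and 1 lower at 1 h, 6 higher and 2 lower at 2 h and 0 called at 3 h. Their summed share of counts lay between 13.8% and 14.7% at 1 h, between 11.9% and 13.4% at 2 h and between 8.69% and 10.5% at 3 h, against 9.04% to 10.7% in water, and their part in these results was not tested.

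AT2G37130 was lower in shoots at every exposure. It had 45.2, 51.8 and 50.5 CPM at 1 h, 65.7, 70.5 and 56.0 CPM at 2 h and 212, 222 and 168 CPM at 3 h, against 352, 331 and 348 CPM in water, with no overlap at any time. The differences were -2.56 ± 0.18, edgeR adjusted p = 1.77e-06 at 1 h, -2.36 ± 0.18, edgeR adjusted p = 2.91e-06 at 2 h and -0.78 ± 0.17, edgeR adjusted p = 0.0099 at 3 h. The 3 h level was above the 2 h level (1.58 ± 0.17, edgeR adjusted p = 0.000246). The 3 h call against water was lost without any one of shoot water replicate 2 or shoot SHAM 3 h replicate 3 (edgeR adjusted p = 0.0571 to 0.0635), or with no low-count filter (adjusted p = 0.0874). AT1G71695 had 123, 156 and 112 CPM at 1 h (-1.17 ± 0.25, edgeR adjusted p = 0.00563) and 173, 157 and 72.7 CPM at 2 h (-1.33 ± 0.25, edgeR adjusted p = 0.00264), against 343, 342 and 360.0 CPM in water. At 3 h it had 305, 363 and 246 CPM, was no longer called (-0.20 ± 0.25, edgeR adjusted p = 0.672) and stood above 2 h (1.14 ± 0.25, edgeR adjusted p = 0.0141). This step was lost without any one of shoot SHAM 3 h replicates 1 or 2 (edgeR adjusted p = 0.0516 to 0.0619). AT4G30170 was low at 3 h, with 10.2, 4.55 and 9.64 CPM after SHAM, against 57.8, 50.9 and 34.8 CPM in water (-2.57 ± 0.35, edgeR adjusted p = 0.000286). It was below its 2 h level of 26.3, 22.4 and 22.5 CPM (-1.63 ± 0.35, edgeR adjusted p = 0.0123). This step was lost without shoot SHAM 3 h replicate 2 (edgeR adjusted p = 0.0595). AT4G36430 was called at 1 h only (4.52, 1.57 and 1.82 CPM after SHAM, against 8.90, 5.80 and 15.2 CPM in water; -1.85 ± 0.58, edgeR adjusted p = 0.0429). This was lost without any one of shoot water replicates 1 or 3 or shoot SHAM 1 h replicates 2 or 3 (edgeR adjusted p = 0.0666 to 0.195), or with DESeq2 or only the libraries compared in the fit (adjusted p = 0.0545 to 0.0638). PRXR1 was lower at 2 h (704, 703 and 391 CPM after SHAM, against 759, 1069 and 1809.9 CPM in water; -0.95 ± 0.29, edgeR adjusted p = 0.0378). The call was lost without any one of shoot water replicates 2 or 3 or shoot SHAM 2 h replicates 1, 2 or 3 (edgeR adjusted p = 0.0772 to 0.17), or with no low-count filter (adjusted p = 0.0767).

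**Figure D4:**
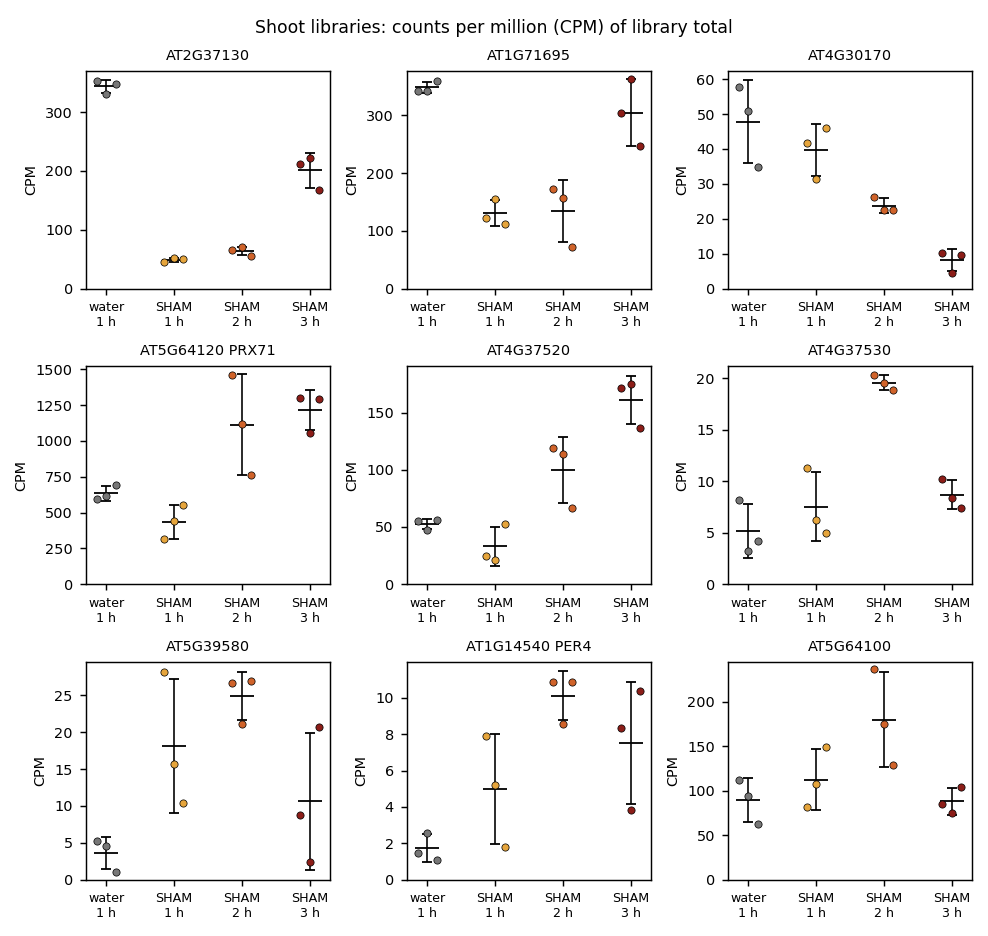
Levels in CPM of 9 peroxidases in the 12 shoot libraries, after water for 1 h and after SHAM for 1, 2 and 3 h (horizontal axis), on linear axes from 0. Points are libraries, and bars are the mean and SD of 3, with lower ends under 0 not drawn. AT2G37130 lies below its water libraries at every exposure, and PRX71 lies above them at 2 h and 3 h.

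Higher in shoots were AT5G39580, PER4, PRX71, AT5G64100 and the pair AT4G37520 and AT4G37530. AT5G39580 had 28.2, 15.7 and 10.5 CPM at 1 h (2.69 ± 0.76, edgeR adjusted p = 0.0255) and 26.6, 21.2 and 26.9 CPM at 2 h (3.05 ± 0.73, edgeR adjusted p = 0.0117), against 5.19, 4.51 and 1.10 CPM in water, without overlap. The 1 h call was lost without any one of shoot water replicate 3 or shoot SHAM 1 h replicates 1 or 2 (edgeR adjusted p = 0.0539 to 0.117). The 2 h call was lost without shoot water replicate 3 (edgeR adjusted p = 0.0537), where the values were 1.99 at 1 h and 2.36 at 2 h. PER4 had 10.9, 8.56 and 10.9 CPM at 2 h (2.69 ± 0.63, edgeR adjusted p = 0.00962) and 8.37, 3.85 and 10.4 CPM at 3 h (2.18 ± 0.64, edgeR adjusted p = 0.0485), against 1.48, 2.58 and 1.10 CPM in water. Its 2 h call was lost without shoot water replicate 3 (edgeR adjusted p = 0.0558). Its 3 h call was lost without any one of shoot water replicates 1, 2 or 3 or shoot SHAM 3 h replicates 1 or 3 (edgeR adjusted p = 0.0626 to 0.167), or with median-ratio size factors (adjusted p = 0.0549). PRX71 had 1463, 1115 and 759 CPM at 2 h (0.86 ± 0.23, edgeR adjusted p = 0.0213) and 1299, 1058 and 1296 CPM at 3 h (0.95 ± 0.23, edgeR adjusted p = 0.0188), against 596, 616 and 695 CPM in water. All 6 of these SHAM libraries lay above the water libraries. The 2 h call was lost without any one of shoot water replicates 1, 2 or 3 or shoot SHAM 2 h replicate 1 (edgeR adjusted p = 0.0592 to 0.127). The 3 h call was lost without any one of shoot water replicates 1, 2 or 3 or shoot SHAM 3 h replicates 1 or 3 (edgeR adjusted p = 0.0518 to 0.078).

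AT4G37520 had 119, 114 and 66.9 CPM at 2 h (0.98 ± 0.27, edgeR adjusted p = 0.022) and 171, 175 and 136 CPM at 3 h (1.62 ± 0.27, edgeR adjusted p = 0.00148), against 54.9, 47.1 and 55.8 CPM in shoot water. The 3 h call held without any 1 library. The 2 h call was lost without any one of shoot water replicates 2 or 3 or shoot SHAM 2 h replicates 1 or 2 (edgeR adjusted p = 0.0675 to 0.104), or with library-size scaling (adjusted p = 0.0572). AT4G37530 was higher at 2 h, with 20.3, 19.6 and 18.9 CPM after SHAM, against 8.16, 3.22 and 4.14 CPM in water (2.05 ± 0.39, edgeR adjusted p = 0.00264). It was lower at 3 h than at 2 h (-1.22 ± 0.36, edgeR adjusted p = 0.0477), which was lost without any one of its 6 libraries (edgeR adjusted p = 0.0881 to 0.164), or with library-size scaling or no low-count filter (adjusted p = 0.0619 to 0.0652). AT5G64100 had 237, 175 and 129 CPM at 2 h, against 112, 94.1 and 63.2 CPM in water (1.06 ± 0.29, edgeR adjusted p = 0.0255). It was likewise lower at 3 h than at 2 h (-1.08 ± 0.29, edgeR adjusted p = 0.0374). The first of these was lost without any one of shoot water replicates 2 or 3 or shoot SHAM 2 h replicate 1 (edgeR adjusted p = 0.0575 to 0.128). The second was lost without any one of shoot SHAM 2 h replicates 1 or 2 or shoot SHAM 3 h replicates 1 or 2 (edgeR adjusted p = 0.0609 to 0.15). Between exposures, 2 members were higher and 1 lower at 2 h than at 1 h (5.9% of all genes called, 2.71% higher and 3.2% lower). They were PRX71 (1.17 ± 0.23, edgeR adjusted p = 0.0125), AT4G37520 (1.40 ± 0.27, edgeR adjusted p = 0.0109) and AT5G17820 (-1.03 ± 0.28, edgeR adjusted p = 0.0442). With library size alone the split was 3 higher and 0 lower, and over all genes 364 higher and 191 lower against 232 and 274. PRX71 lost this call without any one of shoot SHAM 1 h replicate 2 or shoot SHAM 2 h replicate 1 (edgeR adjusted p = 0.0557 to 0.0613), or with only the libraries compared in the fit (adjusted p = 0.055). AT4G37520 lost it without any one of shoot SHAM 1 h replicate 2 or shoot SHAM 2 h replicate 1 (edgeR adjusted p = 0.0535 to 0.0694), or with only the libraries compared in the fit (adjusted p = 0.0605). AT5G17820 lost it without any one of shoot SHAM 1 h replicates 1 or 2 or shoot SHAM 2 h replicates 1 or 2 (edgeR adjusted p = 0.137 to 0.163), or with library-size scaling, no low-count filter or only the libraries compared in the fit (adjusted p = 0.0543 to 0.118). Leaving out shoot SHAM 1 h replicate 2 or shoot SHAM 2 h replicate 1 gave 0 calls. Without shoot SHAM 1 h replicate 3 the 3 loci were called, AT4G37520 at 1.91, and AT3G28200 too (-1.73, edgeR adjusted p = 0.00903), where 12.9% of all genes were called, 5.09% higher and 7.82% lower. At 3 h against 2 h, 3 members were higher and 3 lower (8.94% of all genes called, 4.66% higher and 4.28% lower). Beside those above, PRXR1 was higher (1.03 ± 0.29, edgeR adjusted p = 0.039). That call was lost without any one of shoot SHAM 2 h replicates 1, 2 or 3 or shoot SHAM 3 h replicates 1 or 2 (edgeR adjusted p = 0.0728 to 0.155), or with library-size scaling or no low-count filter (adjusted p = 0.0561 to 0.0566). Without shoot SHAM 3 h replicate 2 only the AT2G37130 step was called.

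The difference between the organs in their response was tested directly, as the shoot effect minus the root effect in a fit of all 24 libraries. That fit takes shoot and root libraries as independent, although both organs were taken from the same pools of seedlings. At 1 h 7 of 37 members differed, 5 with a positive and 2 with a negative difference (5.93% of all genes called, 1.97% positive and 3.96% negative), and all 7 were among the 20 members that passed the filter in both organs. The median over these 20 was 0.63, beside -0.31 over the 7606 genes that passed in both. Of those genes 7.82% were called, 2.38% positive and 5.44% negative. AT5G39580 had the largest called difference: it rose in shoots (2.69) and fell in roots (-2.74), with a difference of 5.31 ± 0.95, edgeR adjusted p = 0.00191. The difference was 4.62 without shoot water replicate 3 and 6.27 without root SHAM 1 h replicate 1. AT5G39580 met the minimum count in 1 shoot water library and passed the shoot filter through SHAM libraries, where it was high. In roots it had 13.2, 2.77 and 4.36 CPM after SHAM, against 39.6, 80.0 and 39.3 CPM in water. PRXCB stood at -0.17 in shoots, uncalled, and at -3.38 in roots (difference 3.10 ± 0.74, edgeR adjusted p = 0.0154), and its shoot libraries overlapped, with 16.9, 11.0 and 5.46 CPM after SHAM, against 20.8, 16.1 and 6.35 CPM in water. AT5G64110 stood at -1.43 in shoots, uncalled, and at -4.21 in roots (difference 2.67 ± 0.75, edgeR adjusted p = 0.0373). AT2G38380 (1.47 ± 0.42, edgeR adjusted p = 0.0402) and AT5G17820 (1.26 ± 0.32, edgeR adjusted p = 0.0218) also had positive differences. In shoots AT2G38380 had 37.2, 17.8 and 25.5 CPM after SHAM, against 15.6, 13.5 and 22.1 CPM in water, and AT5G17820 had 57.6, 44.4 and 37.8 CPM after SHAM, against 40.8, 44.5 and 32.6 CPM in water. AT4G37520 went the other way, with -0.42 in shoots, uncalled, and 1.27 in roots (difference -1.81 ± 0.44, edgeR adjusted p = 0.0159). AT2G37130 fell in both organs, and further in shoots (-2.56) than in roots (-1.47; difference -1.21 ± 0.32, edgeR adjusted p = 0.029). With same-numbered shoots and roots paired in the fit, AT5G17820, AT2G37130, AT2G38380 and AT4G37520 lost their 1 h calls (edgeR adjusted p = 0.0506 to 0.0865).

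**Figure D5:**
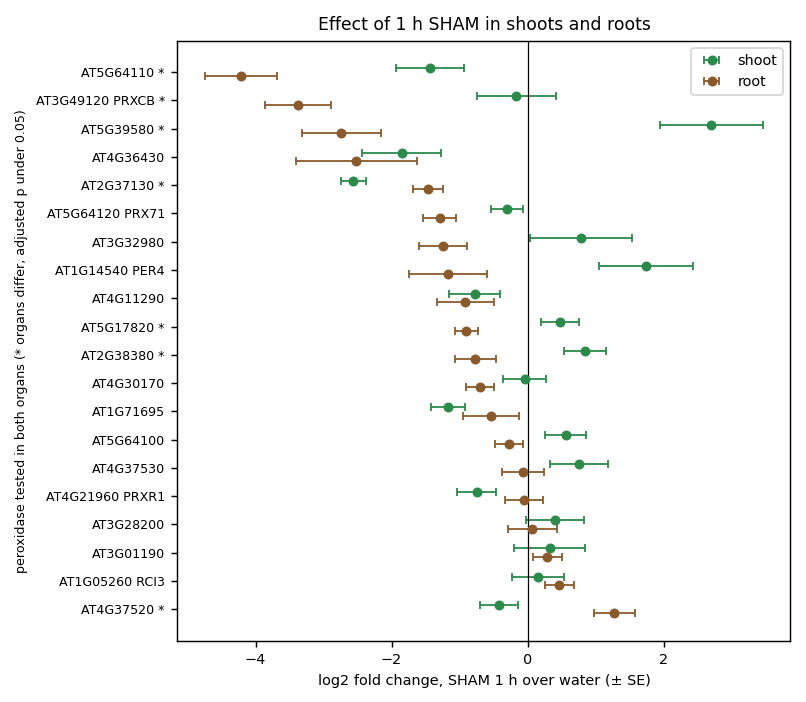
Log2 fold change of SHAM at 1 h over water with its SE (horizontal axis) for the 20 peroxidases tested in both organs (vertical axis), in shoots (green) and in roots (brown). Stars mark the 7 loci whose organ difference was called. AT5G39580 lies right of 0 in shoots and left of 0 in roots.

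At 1 h the call for AT5G39580 held in all 12 fits that left out 1 library. The others depended on some of them. PRXCB lost its call without any one of root water replicate 2 or shoot water replicate 3 or shoot SHAM 1 h replicates 1 or 2 (edgeR adjusted p = 0.0501 to 0.0548). AT4G37520 lost it without any one of root water replicate 2 or shoot SHAM 1 h replicate 2 (edgeR adjusted p = 0.0518 to 0.0545), or with only the libraries compared in the fit (adjusted p = 0.0563). AT5G17820 lost it without any one of shoot water replicate 3 or shoot SHAM 1 h replicates 1 or 2 (edgeR adjusted p = 0.0643 to 0.1), or with no low-count filter or only the libraries compared in the fit (adjusted p = 0.0604 to 0.0721). AT2G37130 was lost without any one of root water replicates 1, 2 or 3 or shoot water replicates 2 or 3 or root SHAM 1 h replicate 2 or shoot SHAM 1 h replicate 1 (edgeR adjusted p = 0.0514 to 0.0803), or with only the libraries compared in the fit (adjusted p = 0.051). AT5G64110 was lost without any one of root water replicates 1 or 2 or shoot water replicates 2 or 3 or root SHAM 1 h replicate 2 or shoot SHAM 1 h replicates 1, 2 or 3 (edgeR adjusted p = 0.0508 to 0.118), or with no low-count filter or only the libraries compared in the fit (adjusted p = 0.0536 to 0.0604). AT2G38380 was lost without any one of root water replicates 1, 2 or 3 or shoot water replicates 1, 2 or 3 or root SHAM 1 h replicates 1 or 2 or shoot SHAM 1 h replicate 1 (edgeR adjusted p = 0.0517 to 0.138), or with no low-count filter (adjusted p = 0.0969). Without shoot SHAM 1 h replicate 3, 6 of the 7 loci were called, together with PER4 (3.23, edgeR adjusted p = 0.043) and Prx37 (4.62, edgeR adjusted p = 0.0399), where 9.01% of all genes were called, 3.33% positive and 5.68% negative. The count of calls was 2 without root water replicate 2, shoot water replicate 3 or shoot SHAM 1 h replicate 1, 3 without shoot SHAM 1 h replicate 2, and 4 without root water replicate 1, shoot water replicate 2 or root SHAM 1 h replicate 2. At 2 h 2 members differed between the organs, both with a positive difference (3.34% of all genes called, 0.82% positive and 2.52% negative). AT4G37530 rose in shoots (2.05) and stood at -0.47 in roots, uncalled (difference 2.46 ± 0.49, edgeR adjusted p = 0.00508), which held without any 1 library. It met the minimum count in 1 shoot water library and passed the shoot filter through SHAM libraries, where it was high. AT5G39580 had 3.05 in shoots and -0.70 in roots (difference 3.67 ± 0.91, edgeR adjusted p = 0.0234). This was lost without any one of root water replicate 2 or shoot water replicate 3 or root SHAM 2 h replicates 1 or 2 or shoot SHAM 2 h replicate 1 (edgeR adjusted p = 0.0522 to 0.0874), and the difference was 3.01 without shoot water replicate 3 and 4.38 without root SHAM 2 h replicate 3. Without root SHAM 2 h replicate 3 and root SHAM 3 h replicate 1, AT2G38380 was called as well (1.68), beside 3.32% of all genes. At 3 h edgeR called 0 members (1.73% of all genes called, 0.436% positive and 1.29% negative), and DESeq2 called 1. Over all genes the split of calls moved with the scaling, at 1 h 231 higher and 463 lower with TMM, 247 and 319 with library size alone and 272 and 339 with median-ratio size factors.

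The remaining tested loci in roots gave no call at any exposure against water. They were PER64, PRX72, RCI3, PRXR1, AT3G01190, AT4G11290, AT1G71695, AT4G36430, AT4G37530, AT5G64100, AT3G21770, AT1G68850, AT2G18980 and AT3G28200. AT4G36430 was uneven among its libraries, with 13.2, 6.16 and 16.5 CPM at 1 h, 12.6, 31.8 and 186 CPM at 2 h and 19.0, 201 and 210.3 CPM at 3 h, against 62.9, 62.6 and 111 CPM in water. The highest library at 2 h was replicate 3 and the lowest at 3 h replicate 1, and without both it was called higher at 3 h (1.79). With all libraries it stood at 1.21 (edgeR adjusted p = 0.349). AT1G49570 (33.0, 99.6 and 188 CPM at 3 h, against 57.1, 68.4 and 72.7 CPM in water; 1.54) was called higher at 3 h without both, as was AT4G11290 (125, 294 and 362 CPM at 3 h, against 218, 265 and 210.3 CPM in water; 0.92). With all libraries AT1G49570 stood at 1.05 and AT4G11290 at 0.52 (edgeR adjusted p = 0.218 and 0.431). For each of these loci replicate 1 was the lowest 3 h library, so a higher value without it was set in advance. Without both libraries PRX72 (-1.33), PER64 (-1.22), Prx37 (-1.43) and, on few counts, PRX52 were also called lower at 2 h. The 2 h replicate left out was the highest of its group for each of them. AT3G01190, with 640.3, 784 and 807 CPM at 1 h, against 759, 653 and 747 CPM in water, had fold changes of 0.29, 0.23 and 0.19 at 1, 2 and 3 h. A missed threshold does not show that these loci stood still.

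The related genes were described by the same test in roots. Over all genes tested there, 5.22%, 5.4% and 6.4% were lower at 1, 2 and 3 h. The shares higher were 7.01%, 8.6% and 9.99%, and the medians over all genes 0.04, -0.08 and -0.07. Of 28 further class III peroxidase loci, 20 were in the table and 11 were tested, of which 2 were lower and 1 higher at 1 h, 2 lower and 0 higher at 2 h, and 4 lower and 0 higher at 3 h. AT2G35380 was lower at 1 h (-1.99 ± 0.61, edgeR adjusted p = 0.0465), and AT5G51890 was higher (1.56 ± 0.34, edgeR adjusted p = 0.00958). The extensins, which peroxidases cross-link, were lower in 9 of 13 at 1 h, 11 at 2 h and 10 at 3 h, and higher in 0. EXT13 (AT5G35190) stood at -2.80 ± 0.43, edgeR adjusted p = 0.000973 at 1 h and HRGP1 (AT3G54590) at -3.76 ± 0.60, edgeR adjusted p = 0.000893 at 2 h. The median over the 13 was -1.69, -3.01 and -2.82 at 1, 2 and 3 h. The NADPH oxidases of the RBOH family, which supply superoxide to the wall, had 0 calls among 5 tested in roots at each exposure, with medians of -0.94, -0.23 and 0.11. Of 4 tested regulators of root hairs and peroxidases, RSL2 (AT4G33880), a transcription factor of root hair growth, was lower at 1 h (-1.77 ± 0.51, edgeR adjusted p = 0.0361) and at 3 h (-2.06 ± 0.53, edgeR adjusted p = 0.0166). At 2 h 0 of the 4 were called. In shoots 1 of 6 tested further peroxidases was called at 1 h, AT3G17070 (-1.20 ± 0.36, edgeR adjusted p = 0.0332), and 0 at 2 h and 3 h. Of all genes tested in shoots, 16.8%, 15.8% and 9% were called at 1, 2 and 3 h.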

How the data were processed

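RNA of shoots and roots from 24 samples, 3 per organ and exposure, was sequenced with the MARS-seq protocol, which reads transcript 3′ ends, per the labels' protocols. The authors deposited 1 table with a raw count per gene and library, and with DESeq2 log2 values (first named group over second, so control over SHAM) and adjusted p-values. The submitters' processing notes list STAR 2.4.2a, HTSeq, DESeq2, bcl2fastq and cutadapt; the genome build, strand and treatment of molecular identifiers are not given in the sources used here. PCR duplicates could therefore be counted, and intervals and floors cover counting error only. Ratios and floors pool the counts of a group over its library totals, without TMM scaling. The deposited log2 values and p-values are used here only where the authors' deposited table is named.

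Counts were tested with edgeR 4.0.16 (R 4.3.3; quasi-likelihood test, TMM scaling, filterByExpr with a minimum count of 10 and a minimum total of 15), with Benjamini-Hochberg adjustment over all genes tested (10642 in roots, 8570 in shoots, 11704 across organs). The 12 libraries of an organ entered 1 fit, and all 24 entered the fit of organ differences. A standard error is the size of the log2 fold change divided by the root of F. The code was tested on simulated data. Also tried were DESeq2 1.42.0, no filter, library size alone, median-ratio size factors, a fold change of at least 2, only the libraries compared, a replicate block, leaving out each library, and, chosen after seeing the data, leaving out root SHAM 2 h replicate 3 and root SHAM 3 h replicate 1 together, and restricting counts to genes past the filter in both organs or in the SHAM libraries alone. Full values are given for up to 8 called members per direction and comparison with the largest fold change, the 5 members with the highest CPM in each organ in water, and genome neighbours of named members. The share of all genes whose groups did not overlap was not computed for any comparison. The members and lists were chosen with earlier results of these data known. Symbols, neighbours and transcript ends came from RefSeq's TAIR10.1 annotation. No sequence is printed.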

Additional observations from a re-analysis of the deposited data

Results flagged for a closer look

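The following organ differences passed edgeR's test of the shoot effect minus the root effect, on the log2 scale. At 1 h of SHAM the difference was 5.31 for AT5G39580, 3.10 for AT3G49120 (PRXCB), 2.67 for AT5G64110, 1.47 for AT2G38380 and 1.26 for AT5G17820, whose SHAM effect was the more positive in shoots. It was -1.81 for AT4G37520 and -1.21 for AT2G37130, where the shoot effect was the more negative. At 2 h it was 3.67 for AT5G39580 and 2.46 for AT4G37530. Leaving out a single library ended 6 of the 7 calls at 1 h and 1 of the 2 at 2 h. The exceptions were AT5G39580 at 1 h and AT4G37530 at 2 h, which both passed the shoot filter only through SHAM libraries. Pairing same-numbered shoots and roots in the fit ended the 1 h calls of AT5G17820, AT2G37130, AT2G38380 and AT4G37520.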

How the results depend on the processing

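Of 780 values of called peroxidases in fits that left out 1 library, 603 kept their call, 177 lost it and 0 changed sign. With the other settings, 120 of 121 calls held with median-ratio size factors, 117 with DESeq2, 115 with library size alone and 111 without the filter, 100 of 116 with only the libraries compared, and 103 of 120 with the replicate number as a block. For the organ differences the block was a term for each exposure and replicate number, which pairs same-numbered shoots and roots. Apart from the organ differences, the per-locus lists above leave out the block, which ended 17 calls. In roots these were AT4G30170, AT3G32980 and PRX52 at 1 h, PER4 at 2 h and Prx37 for 2 h over 1 h. In shoots they were AT4G36430 at 1 h, PRXR1 and AT5G64100 at 2 h and PER4 at 3 h. The shoot steps were AT5G17820 for 2 h over 1 h, and PRXR1, AT4G37530 and AT5G64100 for 3 h over 2 h. The organ differences were AT5G17820, AT2G37130, AT2G38380 and AT4G37520 at 1 h. One value reversed: AT4G37520 in shoots over roots in water stood at -0.19 with library size alone. Leaving out 1 library gave 13 to 16 called members (510 to 1533 of all genes) in roots at 1 h, 11 to 15 (822 to 1136) at 2 h and 11 to 12 (1001 to 1718) at 3 h; 2 to 5 (898 to 1449), 4 to 8 (761 to 1201) and 2 to 5 (417 to 729) in shoots at 1, 2 and 3 h; 0 to 5 (58 to 369) for 2 h over 1 h and 0 (0) for 3 h over 2 h in roots, 0 to 4 (87 to 1149) and 1 to 6 (294 to 645) for these steps in shoots; 30 to 32 (5049 to 5904) between the organs in water; and 2 to 8 (308 to 1127), 1 to 3 (195 to 341) and 0 (79 to 150) for the organ differences at 1, 2 and 3 h. The same-numbered libraries did not deviate together (median r -0.0257 in roots, -0.121 in shoots and -0.091 between the organs), so the numbers were not taken as pairs in the main fits. With the replicate block, all genes called came to 282 for 2 h over 1 h in roots, 307 for that step in shoots, and 293, 200 and 81 for the organ differences at 1, 2 and 3 h, and called members to 3 for 3 h over 2 h in shoots and 3 for the organ difference at 1 h. With only the libraries compared, all genes called came to 822 in roots at 1 h, 0 and 139 for 2 h over 1 h in roots and shoots, and 333, 619 and 306 for the organ differences, and members to 0 for both of those steps and 3 for the organ difference at 1 h. DESeq2 called 8 members for 2 h over 1 h in roots, with no count over all genes given here, and 1 member and 376 genes for the organ difference at 3 h. Without the filter 4 members were called for the organ difference at 1 h and 125 genes for that at 3 h. Library size alone gave 20 members in roots at 3 h, and a fold of at least 2 gave 3 in shoots at 3 h. Leaving out root SHAM 2 h replicate 3 and root SHAM 3 h replicate 1 together gave 3 members (217 genes) for 2 h over 1 h and 5 (230) for 3 h over 2 h in roots. The gain for 3 h over 2 h was largely set by the choice of these libraries. With TMM-scaled library sizes the members' mean share was 0.234%, 0.321% and 0.446% in shoots after 1, 2 and 3 h of SHAM, against 0.386% in water, and 0.689% and 0.81% in roots after 1 h and 3 h, against 1.11% in water; without the member with the highest count it was 0.101% and 0.215% in shoots at 1 h and 3 h, against 0.172% in water, and 0.769% in roots at 1 h, against 1.59% in water. For each of these changes the cause was not tested, beyond the fewer samples of the smaller fits. Depth limits the members with few counts: 20 of 40 were not tested in shoots and 3 in roots.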
